A study of Homo sapiens with 9 samples.

Results

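The genes described here were 10 members of the AP-1 family and immediate early group, taken by symbol from the 16222 genes of the deposited tables. They were the Fos subunits FOS, FOSB and FOSL2 and the Jun subunits JUN, JUNB and JUND. The others were the early-response genes IER2 and IER3, the mRNA decay factor ZFP36 and the transcription factor MYC. The cells sequenced were THP-1 (genotype WT), an established human line from a monocytic leukaemia that is widely used as a macrophage model. All cells, controls included, had first been stimulated with PMA, a phorbol ester. Cells of the LPS_ABS group were then given LPS together with ABS, those of the LPS group were given LPS alone (lipopolysaccharide from the outer membrane of Gram-negative bacteria), and those of the control group were given PBS. ABS is not spelled out in the labels, although apoptotic bodies are the subject of the series title. Each group held 3 libraries from this single line, with neither dose nor time given.

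Fos and Jun proteins carry a basic leucine zipper and bind DNA as dimers, together called AP-1. Fos proteins need a Jun partner, whereas Jun proteins can also pair with one another. In macrophages, Toll-like receptor ligands such as LPS activate MAP kinases. These switch many of the genes on within minutes and without new protein synthesis. The mRNAs then decay quickly, in part through AU-rich elements in their 3′ untranslated regions. ZFP36 (tristetraprolin) binds such elements and speeds decay. Phorbol esters activate protein kinase C and are classical inducers of AP-1, so every group had met an AP-1 stimulus before the treatments compared.

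Total counts were 38506162 to 38893597 in LPS_ABS libraries, 39168526 to 41679412 in LPS libraries and 39791729 to 41608801 in controls. Of 12 monocyte and macrophage markers 11 reached a mean of at least 1 FPKM (counts per transcript length and library size, as deposited), with a summed level of 967 to 1085 FPKM in LPS_ABS libraries, 900.4 to 949.3 in LPS libraries and 753.6 to 805.5 in controls. None of the fibroblast, chondrocyte and epithelial markers reached 1 FPKM. Of the T cell, B cell and endothelial lists only 1 marker each did (CD4, CD79B and PECAM1). In these bulk libraries fewer cells of a type and less RNA per cell cannot be told apart. The LPS_ABS libraries stood apart in how counts followed GC content: the slope of log2 counts, per 10 GC points and relative to all libraries, was 0.22, 0.32 and 0.36 in LPS_ABS libraries, -0.30, -0.02 and -0.12 in LPS libraries, and -0.17, -0.15 and -0.14 in controls. The members' transcripts were all GC-rich, from 52.6% (FOS) to 69.7% (JUND), above 60.5% to 99.5% of genes. Many results are therefore given both without and with an offset that removes this trend. A value printed with no mention of the offset is without it, and FPKM and the sums and shares made from them were not offset.

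The regulatory sequences around 4 of the start sites are shown because their genes carry the differences described below. These are RefSeq promoter windows of GRCh38.p14, from 250 bases before to 50 bases after the annotated start, written 5′ to 3′ along the gene. Capitals mark a TATA box (TATAAA) in FOS, a phorbol ester response element (TGANTCA, the AP-1 site) in FOSL2, and one form of the ETS site (CGGAAG on either strand) in IER2 and ZFP36. Other forms of the ETS site were not searched.
FOS, chr14:75278578-75278877 (+): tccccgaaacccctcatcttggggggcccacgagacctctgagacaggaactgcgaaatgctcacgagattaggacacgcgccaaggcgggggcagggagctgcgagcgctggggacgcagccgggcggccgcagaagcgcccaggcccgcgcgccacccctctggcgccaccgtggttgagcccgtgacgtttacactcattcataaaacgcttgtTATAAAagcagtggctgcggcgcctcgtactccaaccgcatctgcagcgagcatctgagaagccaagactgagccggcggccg
FOSL2, chr2:28392608-28392907 (+): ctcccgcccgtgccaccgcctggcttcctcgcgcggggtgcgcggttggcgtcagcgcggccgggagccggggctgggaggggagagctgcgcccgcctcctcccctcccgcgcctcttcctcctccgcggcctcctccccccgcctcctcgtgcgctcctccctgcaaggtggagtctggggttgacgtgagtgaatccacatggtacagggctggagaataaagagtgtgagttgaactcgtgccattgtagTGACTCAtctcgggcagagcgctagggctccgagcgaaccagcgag
IER2, chr19:13150161-13150460 (+): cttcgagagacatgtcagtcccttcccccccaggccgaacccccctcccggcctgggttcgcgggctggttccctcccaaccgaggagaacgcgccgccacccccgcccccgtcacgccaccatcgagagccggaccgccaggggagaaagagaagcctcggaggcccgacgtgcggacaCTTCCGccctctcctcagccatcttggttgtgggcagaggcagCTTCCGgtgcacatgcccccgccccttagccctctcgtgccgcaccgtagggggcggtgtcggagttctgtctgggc
ZFP36, chr19:39406597-39406896 (+): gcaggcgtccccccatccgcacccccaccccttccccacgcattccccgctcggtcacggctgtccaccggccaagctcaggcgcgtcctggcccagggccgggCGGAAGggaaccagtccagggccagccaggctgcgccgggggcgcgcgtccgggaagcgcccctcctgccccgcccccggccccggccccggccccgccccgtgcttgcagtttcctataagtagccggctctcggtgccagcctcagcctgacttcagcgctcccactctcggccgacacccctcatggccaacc
An entry was found for 8 of the 10 genes, all but IER3 and MYC. The AP-1 site TGANTCA occurred in FOSL2 only, from base 5 to base 11 after the start, and in 7.71% of 35116 promoters of the same length. Its relative TGACGTCA occurred in JUND only, against 1.85% of promoters. TATAAA stood 33 bases before the start in FOS, 30 in FOSB and 31 in JUNB, against 11.5% of promoters. CGGAAG was present in JUNB, IER2 and ZFP36 (19.5% of promoters) and GGGCGG in all of the 8 but JUNB (45% of promoters). Both strands were searched, and a CGGAAG overlapped a GGGCGG once in IER2 and once in ZFP36. The CArG box, the NF-kB site and CACGTG were found in none of the 8 windows, against 1.29%, 5.91% and 7.26% of promoters, which says only that these letters are not in these windows.

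The 3′ untranslated regions of the members differed in AU-rich core motifs. For IER3, ZFP36 and FOS, the members in which the 7-base core TATTTAT was most frequent for their length, one stretch of 30 bases is shown with that core in capitals, in transcript direction (GENCODE v29, GRCh38).
IER3, chr6:30743652-30743681 (-): ctcctaattaaTATTTATatgTATTTATgt
ZFP36, chr19:39409184-39409213 (+): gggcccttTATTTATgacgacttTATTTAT
FOS, chr14:75282060-75282089 (+): tgtttttaattTATTTATtaagatggattc
IER3 held 4 such cores, and 0.557% of 897 genes with a 3′ region within 10% of its length held as many. ZFP36, which binds such elements, held 3 in its own mRNA (1.3% of 847 genes). FOS held 2, a count reached by 5.06% of 890 genes. FOSL2 also held 2, in a far longer region where 39.5% of genes did. FOSB, JUN and JUND held 1 each, and JUNB, IER2 and MYC held 0. The shorter core ATTTA was also counted, against the median of genes of similar 3′ length. MYC held 4 (median of 0), IER3 6, and FOS and ZFP36 5 each (median of 1). JUN held 3 (median of 2) and JUNB 2 (median of 1). JUND held 1, equal to its median, while FOSB held 3 (median of 4), FOSL2 9 (median of 10) and IER2 0 (median of 2).

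By deposited FPKM, the Jun subunits JUNB and JUND were the most abundant members and FOSB the least in every group. The lengths behind these FPKM are not given, and the order of genes depends on them. The length implied for MYC exceeds its longest coding transcript (2366 bases). With the lengths of the longest coding transcripts MYC, and not JUNB or JUND, would have the highest mean in every group. JUNB averaged 70.5 ± 14.6 FPKM in LPS_ABS libraries, 47.6 ± 7.10 in LPS libraries and 51.2 ± 4.90 in controls (SD, n = 3 libraries here and below). JUND, its near equal, averaged 66.7 ± 8.09, 55.5 ± 10.97 and 52.1 ± 3.77 FPKM in the same groups. FOSB was lowest throughout, at 0.290 ± 0.118 FPKM in LPS_ABS libraries, 0.208 ± 0.104 in LPS libraries and 0.0769 ± 0.0447 in controls. In LPS_ABS libraries the order ran JUNB, JUND, ZFP36, MYC, IER2, FOSL2, FOS, IER3, JUN and FOSB. The ranges of neighbours in it were apart between ZFP36 and MYC, between IER2 and FOSL2, between IER3 and JUN and between JUN and FOSB, and overlapped elsewhere. In LPS libraries JUND, JUNB, MYC and ZFP36 overlapped as neighbours and lay above IER2, and FOSL2 lay above FOS. In controls JUND and JUNB overlapped and lay above MYC and ZFP36, and FOS lay above FOSL2.

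**Figure D1:**
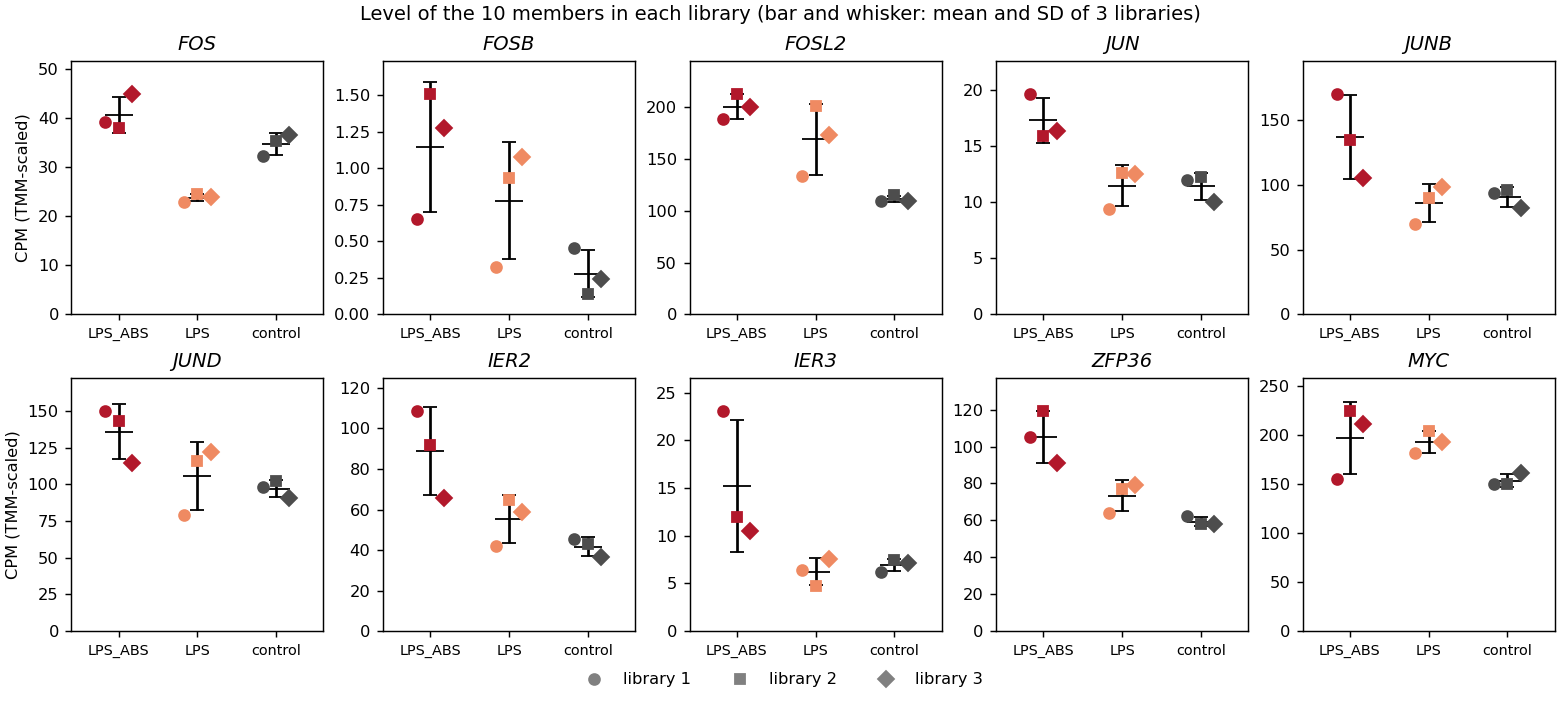
Level of each member (y axis, CPM after TMM scaling, from 0) in the 3 libraries of the LPS_ABS, LPS and control groups (x axis), with the mean as a bar and the SD as a whisker. FOS was lowest in the LPS group, FOSL2 was lowest in controls, and IER3 ran from 10.4 to 23.1 CPM in the LPS_ABS group.

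The Fos subunits FOS and FOSL2 moved in opposite directions under LPS. FOS, the founding member of the family, had 22.9, 24.4 and 24.0 CPM in LPS libraries, against 32.1, 35.3 and 36.6 CPM in controls. All LPS libraries lay below all controls, and they were the tightest group for this gene, with an SD of 0.777 CPM. FOS fell by 0.54 ± 0.13 on the log2 scale (SE) with an adjusted p of 0.0138 (edgeR quasi-likelihood test), a ratio of 0.686 of LPS to control. With the GC offset it fell by 0.53 ± 0.11 (adjusted p of 0.00422, edgeR).

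FOSL2, which encodes the Fos relative Fra-2, had 133, 201 and 172 CPM in LPS libraries, against 109, 115 and 109.6 CPM in controls. Every LPS library lay above every control, with LPS 1 nearest to them. FOSL2 rose by 0.60 ± 0.14 on the log2 scale (adjusted p of 0.0154, edgeR), and by 0.60 ± 0.12 with the offset (adjusted p of 0.00414). Over all genes tested, 14.9% were called in this comparison (7.71% higher, 7.19% lower) at an adjusted p under 0.05, and 21.1% with the offset (11.4% higher, 9.73% lower). Among the 10 members 1 was called higher and 1 lower in both fits, a share near this background. Both calls were lost without LPS 3 (adjusted p of 0.0606 for FOS and 0.0640 for FOSL2), without control 2 (0.0641 and 0.0545) and without control 3 (0.0689 and 0.0638), and that of FOSL2 also without control 1 (0.0672), while the fold changes stayed between -0.60 and -0.50 for FOS and between 0.50 and 0.75 for FOSL2 over all libraries left out.

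FOSB, a Fos protein that is nearly silent in resting cells, was at the edge of detection. It had counts of 14, 39 and 42 in LPS libraries, against 19, 6 and 10 in controls. LPS 1 lay within the control range, and its log2 difference of 1.46 ± 0.59 was not called (adjusted p of 0.120, edgeR). The gene lies wholly within the span of ERCC1 on the other strand, and since the strand setting of the counting is not known, reads from ERCC1 cannot be told apart from its own.

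No Jun subunit was called between LPS and control. JUN, the strongest activator among them, had 9.38, 12.6 and 12.5 CPM in LPS libraries, against 11.96, 12.3 and 10.1 CPM in controls, a log2 difference of 0.01 ± 0.17. JUNB, often an antagonist of JUN, differed by -0.07 ± 0.18, and JUND, the constitutively expressed subunit, by 0.12 ± 0.17. The ranges of all 3 genes overlapped between the groups, and their adjusted p-values ran from 0.672 (JUND) to 0.985 (JUN; edgeR). LPS 1 was the lowest LPS library for each of them. JUNB lies within the span of HOOK2 on the other strand, with the same limit as for FOSB. The limit also holds in part for FOSL2, IER2 and IER3. Genes on the other strand overlap them by 2225 bases (FLJ31356), 1123 bases (AC011446.2) and 394 bases (IER3-AS1). FOSL2 also holds a gene of 296 bases on its own strand (AC104695.3).

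Of the remaining members none was called between LPS and control. ZFP36 had 63.9, 77.3 and 79.2 CPM in LPS libraries, against 62.2, 57.9 and 57.8 CPM in controls. MYC, which pairs with MAX to drive growth genes, had 182, 205 and 194 CPM in LPS libraries, against 150.0, 149.8 and 161 CPM in controls. For both genes every LPS library lay above every control, as it did for FOSL2 and for 19.9% of all genes tested. FOS was the member whose LPS libraries all lay below, as for 22.7% of all genes. With the offset IER2 joined those above (23.3% of all genes). The log2 differences of ZFP36 and MYC were 0.31 ± 0.14 (adjusted p of 0.151, edgeR) and 0.33 ± 0.14 (adjusted p of 0.131). IER2, a nuclear early-response protein, averaged 55.2 ± 11.8 CPM in LPS libraries and 41.7 ± 4.61 CPM in controls (adjusted p of 0.197, edgeR, and 0.0651 with the offset). IER3 (IEX-1), a stress-induced regulator of cell survival, averaged 6.24 ± 1.41 CPM in LPS libraries and 6.94 ± 0.625 CPM in controls (adjusted p of 0.763). The median log2 difference over the members was 0.22, against -0.03 over all genes tested.

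**Figure D2:**
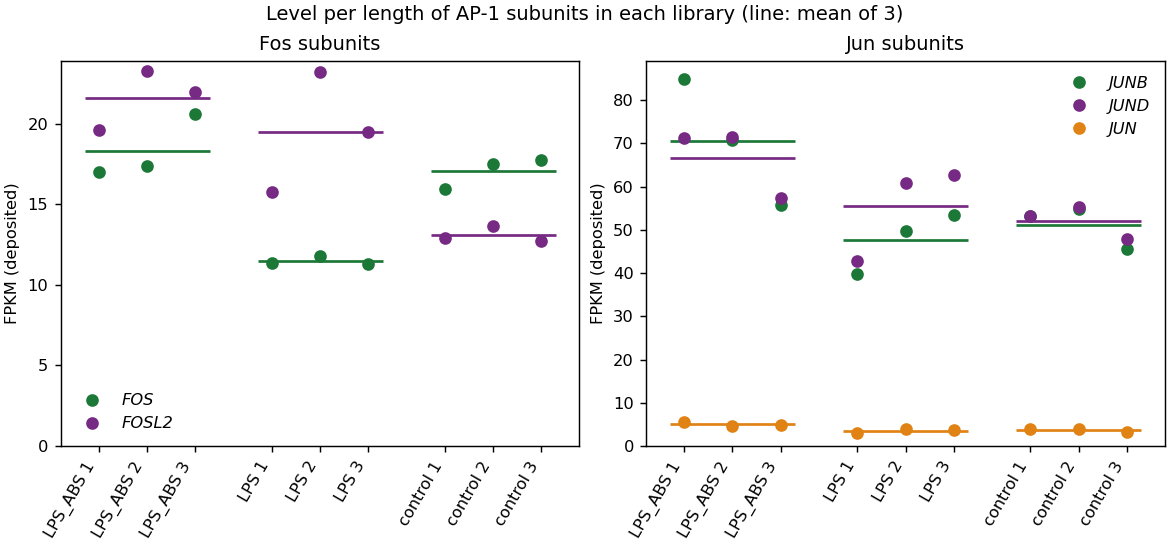
Deposited FPKM (y axis, from 0) of FOS and FOSL2 (left) and of JUNB, JUND and JUN (right) in each of the 9 libraries (x axis), with a line at each group's mean; FOSB, below 0.4 FPKM in every library, is left out. FOSL2 lies above FOS in every LPS_ABS and LPS library and below it in every control, while JUNB and JUND stay close to each other in each library.

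By deposited FPKM, the more abundant of FOS and FOSL2 was FOSL2 in LPS libraries and FOS in controls. FOS had 11.4, 11.8 and 11.3 FPKM in LPS libraries, against 15.9, 17.5 and 17.8 FPKM in controls. FOSL2 had 15.8, 23.2 and 19.5 FPKM in LPS libraries, against 12.9, 13.7 and 12.7 FPKM in controls. In each LPS library FOSL2 was above FOS, and in each control it was below. The order in controls depends on the lengths used. The length implied for FOSL2 by the deposited FPKM exceeds its longest coding transcript (6708 bases, against 2158 for FOS). With the lengths of these transcripts FOSL2 would lie above FOS in control 1 and control 2, as well as in every LPS library. FOS made up 37.2% ± 4.19 of the summed FPKM of FOS, FOSB and FOSL2 in LPS libraries and 56.4% ± 1.61 in controls, and the sum itself was 31.2 ± 3.99 FPKM in LPS libraries and 30.3 ± 1.14 FPKM in controls. The transcripts of FOS and FOSL2 have GC contents of 52.6% and 53.3%. The shares rest on the deposited lengths and were not tested.

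FOS was higher with LPS_ABS than with LPS alone. FOS had 39.1, 38.0 and 44.8 CPM in LPS_ABS libraries, against 22.9, 24.4 and 24.0 CPM in LPS libraries. The groups lay well apart, and FOS rose by 0.77 ± 0.13 on the log2 scale (1.71-fold, adjusted p of 0.00404, edgeR). With the GC offset it rose by 0.56 ± 0.11 (1.47-fold, adjusted p of 0.0115, edgeR). It was the single member called under every alternative tried in this comparison, whichever library was left out. With the offset, LPS_ABS libraries were left out in turn, but LPS libraries were not. The LPS libraries are the same ones that were set against controls above, so the fall and the rise of FOS share them.

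**Figure D3:**
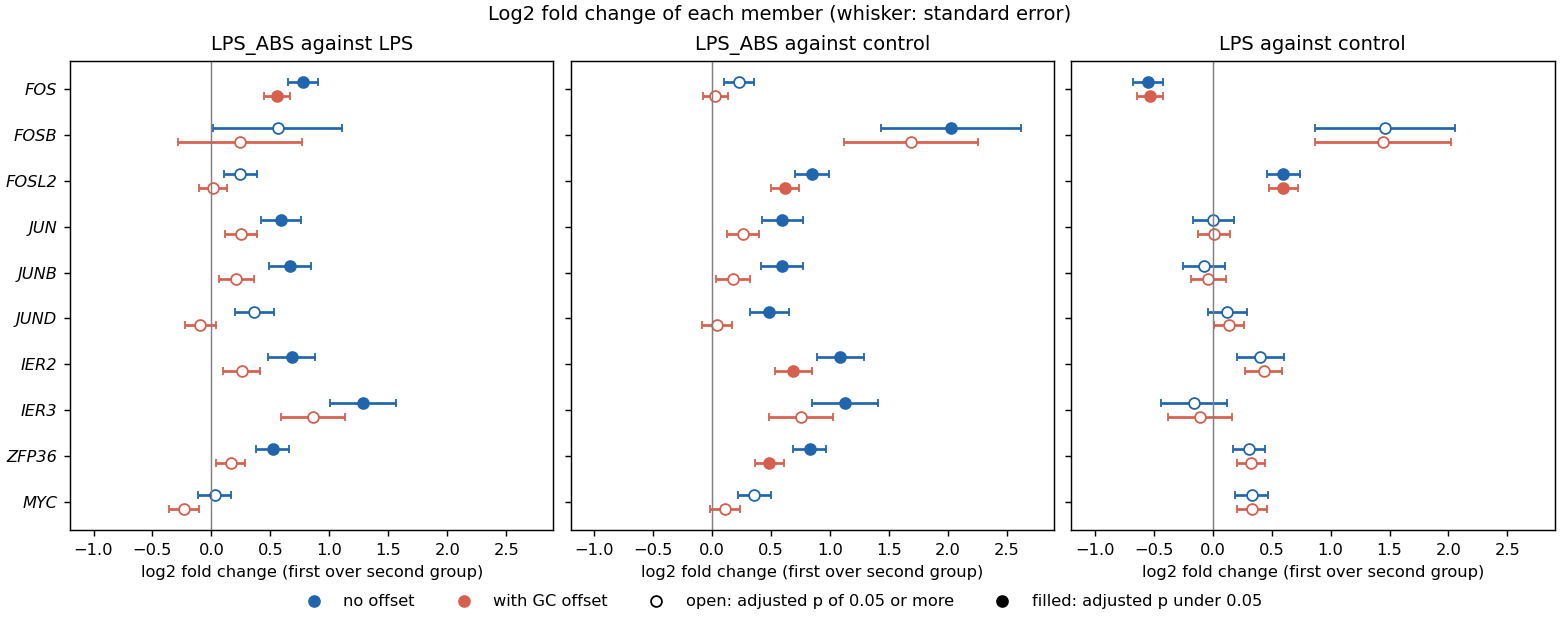
Log2 fold change of each member (x axis, with its standard error as a whisker) for LPS_ABS against LPS, LPS_ABS against control and LPS against control, without (blue) and with (red) the GC offset; filled points have an adjusted p under 0.05. With the offset the points of LPS_ABS against LPS move to lower values for every member, and FOS alone stays filled.

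Without the offset 6 of the 10 members rose with LPS_ABS against LPS: FOS, JUN, JUNB, IER2, IER3 and ZFP36. Over all genes 35.6% were called, 16.8% higher and 18.8% lower, and no member was lower. The share called higher was 30.3% among genes of 52.5% to 58.9% GC, a range that held 7 of the members, and 38.5% among genes above it, which held JUNB, JUND and IER2. With the offset 1 member was called, against 9.18% of all genes, 4.97% higher and 4.21% lower. The median log2 difference over the members was 0.58 without and 0.23 with the offset, against 0.02 and 0.00 over all genes tested. For the 6 members named, every LPS_ABS library lay above every LPS library without the offset (21.9% of all genes), and with it this held for FOS, JUN and IER3 (13.5% of all genes).

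**Figure D4:**
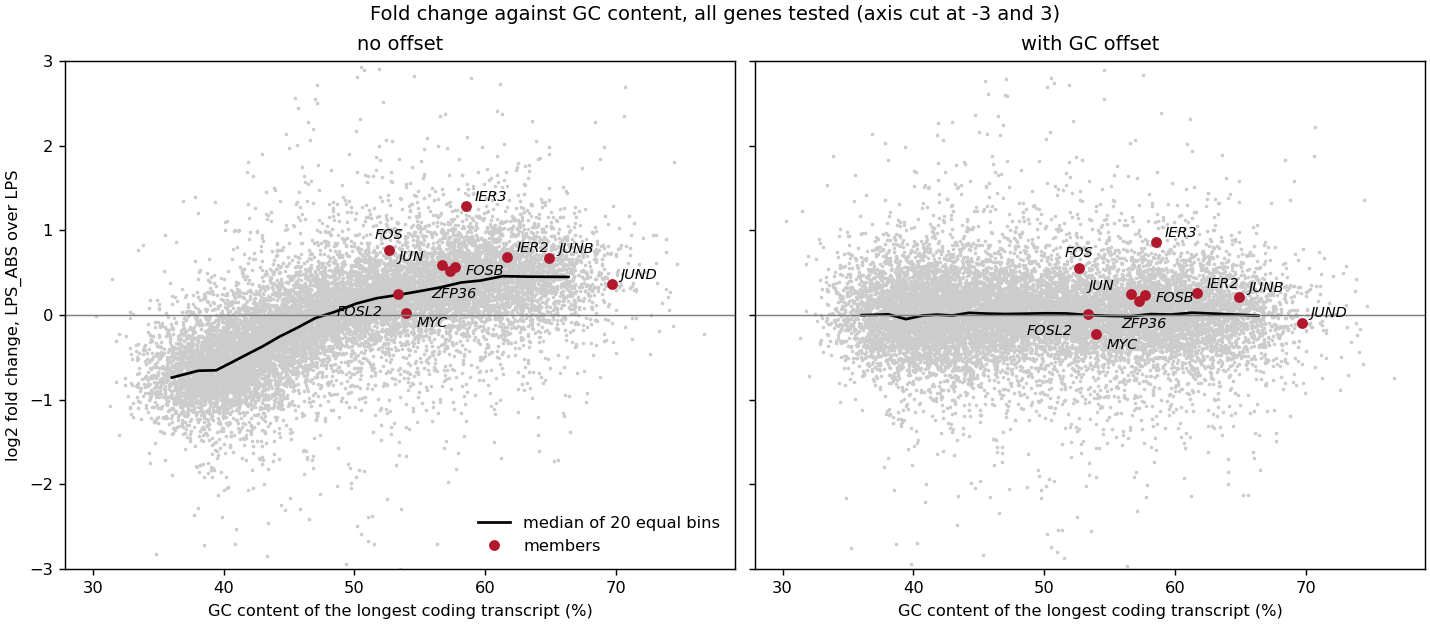
Log2 fold change of LPS_ABS over LPS (y axis) against the GC content of the longest coding transcript (x axis, %) for all genes tested (grey) and the members (red), without the offset (left) and with it (right); the line joins medians of 20 bins of equal size. On the left the median climbs with GC content and most members lie near or above it; on the right it is flat, with FOS and IER3 the highest members.

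IER3, whose fold was the largest among the members called in this comparison, had 23.1, 12.01 and 10.4 CPM in LPS_ABS libraries, against 6.39, 4.76 and 7.57 CPM in LPS libraries. The groups did not overlap, but LPS_ABS 1 stood far above the other LPS_ABS libraries. IER3 rose by 1.28 ± 0.28 on the log2 scale (2.44-fold, adjusted p of 0.00745, edgeR), and without LPS_ABS 1 by 0.85 (adjusted p of 0.00797). With the offset the difference was 0.86 ± 0.27 (adjusted p of 0.0617), and 0.47 when LPS_ABS 1 was also left out (adjusted p of 0.156). Under the offset IER3 was called without LPS_ABS 3 (1.06, adjusted p of 0.0342, edgeR) and with a replicate block (0.84, 0.0452), and was not called without LPS_ABS 2 (0.98, 0.0832).

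Among the Jun subunits, JUN had 19.6, 15.9 and 16.3 CPM in LPS_ABS libraries, against 9.38, 12.6 and 12.5 CPM in LPS libraries. JUNB had 170, 134 and 106 CPM in LPS_ABS libraries, against 69.6, 89.6 and 98.6 CPM in LPS libraries. LPS_ABS 1 was the highest library for both genes and LPS 1 the lowest. JUN rose by 0.59 ± 0.17 (adjusted p of 0.0207, edgeR) and JUNB by 0.67 ± 0.18 (adjusted p of 0.0150) on the log2 scale, against 0.25 ± 0.14 (0.235) and 0.21 (0.357) with the offset. Without LPS 1 neither was called (adjusted p of 0.0798 and 0.0615), and JUN was not called when only these 2 groups were fitted (0.0548). JUND averaged 136 ± 18.9 CPM in LPS_ABS libraries and 106 ± 23.1 CPM in LPS libraries (adjusted p of 0.103, edgeR), with a log2 difference of 0.36 ± 0.17 that became -0.09 with the offset.

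IER2 and ZFP36 likewise rose without the offset and were not called with it. IER2 had 109, 91.7 and 65.6 CPM in LPS_ABS libraries, against 42.0, 64.9 and 58.8 CPM in LPS libraries. ZFP36 had 105, 119 and 91.0 CPM in LPS_ABS libraries, against 63.9, 77.3 and 79.2 CPM in LPS libraries. The lowest LPS_ABS library of IER2 was barely above the highest LPS library, while those of ZFP36 were clearly apart. IER2 rose by 0.68 ± 0.20 on the log2 scale (adjusted p of 0.0214, edgeR) and ZFP36 by 0.52 ± 0.14 (0.0142), against 0.26 (0.291) and 0.16 (0.392) with the offset. Neither was called without LPS 1 (0.0840 and 0.0523) or without LPS_ABS 2 (0.0586 and 0.0515), nor IER2 without LPS_ABS 1 (0.0607).

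FOSL2, FOSB and MYC were not called between LPS_ABS and LPS in either fit. FOSL2 had 188, 212 and 199.5 CPM in LPS_ABS libraries, within which range LPS 2 also lay at 201 CPM (log2 difference of 0.25 ± 0.14, and 0.02 with the offset). FOSB had counts of 23, 56 and 48 in LPS_ABS libraries, against 14, 39 and 42 in LPS libraries (0.56 ± 0.55, adjusted p of 0.442, edgeR). MYC had 156, 225 and 211 CPM in LPS_ABS libraries, a range that held all 3 LPS libraries (0.03 ± 0.14, and -0.23 ± 0.13 with the offset). On the per-length scale FOS made up 45.5% ± 2.89 of the Fos sum in LPS_ABS libraries and 37.2% ± 4.19 in LPS libraries, and FOSL2 stayed above it in each library. The Fos sum leaves out FOSL1, which is not a member here and averaged 17.7 CPM in LPS_ABS libraries, 11.15 in LPS libraries and 16.42 in controls. The Jun sum divided by the Fos sum was 3.58 ± 0.82 in LPS_ABS libraries, 3.42 ± 0.39 in LPS libraries and 3.54 ± 0.33 in controls. Without the GC offset, it differed between groups by less than the spread within them. JUNB (64.9% GC) and JUND (69.7%) are richer in GC than FOS (52.6%) and FOSL2 (53.3%), so this ratio also takes in each library's GC trend. With the offset, LPS_ABS against LPS differed by 0.21 for JUNB, -0.09 for JUND, 0.56 for FOS and 0.02 for FOSL2 (log2). The ratio was not formed with the offset.

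Set against controls, 8 of the 10 members rose with LPS_ABS without the offset, all but FOS and MYC. Over all genes 14.8% were called higher, and 27.2% and 29.9% in the same ranges of GC content. In either direction 33.8% were called, 19% lower, where no member was. With the offset FOSL2, IER2 and ZFP36 were called, all higher, against 13% of all genes, 7.93% higher and 5.03% lower. The median over the members was 0.71 without and 0.38 with the offset, and that over all genes 0.05 and 0.02. Every LPS_ABS library lay above every control for 9 members, all but MYC, against 24.9% of all genes, and with the offset for FOSB, FOSL2, JUN, IER2, IER3 and ZFP36, against 16.1% of all genes.

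The 3 genes called in both fits were FOSL2, ZFP36 and IER2. FOSL2 had 188, 212 and 199.5 CPM in LPS_ABS libraries, against 109, 115 and 109.6 CPM in controls, and rose by 0.85 ± 0.14 on the log2 scale (adjusted p of 0.00182, edgeR) or 0.62 ± 0.12 with the offset (0.00639). Its difference under LPS alone was of the same size with the offset, 0.60. ZFP36 averaged 105 ± 14.2 CPM in LPS_ABS libraries and 59.3 ± 2.50 CPM in controls, and rose by 0.83 ± 0.14 (adjusted p of 0.00169, edgeR) or 0.49 ± 0.12 with the offset (0.0201). IER2 averaged 88.7 ± 21.7 CPM in LPS_ABS libraries and 41.7 ± 4.61 CPM in controls, and rose by 1.09 ± 0.20 (adjusted p of 0.00260, edgeR) or 0.69 ± 0.16 with the offset (0.0131). With the offset the calls of ZFP36 and IER2 were lost without LPS_ABS 2 (adjusted p of 0.0868 and 0.0650), and that of FOSL2 was kept whichever LPS_ABS library was left out.

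FOS averaged 40.6 ± 3.67 CPM in LPS_ABS libraries and 34.6 ± 2.29 CPM in controls, a log2 difference of 0.23 ± 0.13 (adjusted p of 0.171, edgeR) and of 0.03 with the offset. FOSB rose by 2.03 ± 0.59 on the log2 scale on counts of 23, 56 and 48 in LPS_ABS libraries against 19, 6 and 10 in controls (adjusted p of 0.0211, edgeR), and differed by 1.69 ± 0.57 with the offset, which was not called (0.0687). IER3 rose by 1.13 ± 0.28 (adjusted p of 0.0100, edgeR), with 0.75 ± 0.27 under the offset (0.0826). Without LPS_ABS 1 its rise was 0.69 (adjusted p of 0.0226, edgeR), and the difference was 0.36 (0.295) with the offset as well, while without LPS_ABS 3 it was called under the offset (0.95, 0.0209). JUN, JUNB and JUND rose by 0.60 ± 0.17, 0.60 ± 0.18 and 0.49 ± 0.17 without the offset (adjusted p of 0.0194, 0.0233 and 0.0394, edgeR) and differed by 0.26, 0.18 and 0.04 with it. Without the offset, the calls of JUNB and JUND were lost when LPS_ABS 1, LPS_ABS 2 or any control was left out (edgeR adjusted p of 0.0539 to 0.0832 for JUNB and 0.0819 to 0.118 for JUND), that of FOSB without LPS_ABS 2, control 2 or control 3 (0.0750, 0.0802 and 0.0631), and that of JUN without control 1 or control 3 (0.0563 and 0.0780). MYC, at 0.36 ± 0.14 (adjusted p of 0.0614), was called without LPS_ABS 1 (0.50, 0.00490), its lowest LPS_ABS library.

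By likeness of profile over the 9 libraries, measured as the root mean square difference of centred log2 CPM among 8479 genes, IER3 was nearest to AGTRAP (0.232), FCAR (0.239) and ASB2 (0.263). IER2 was nearest to REEP4 (0.105), MYO1F (0.124) and CC2D1A (0.127). FOSB was nearest to ANPEP (0.247), ZNF213 (0.252) and BHLHE40 (0.253). These were the members with the widest range of group means, and likeness in this measure also takes in each library's GC trend. For FOSB, at 0.138 to 1.508 CPM, the 0.5 CPM added before taking logs narrows the profile, so its nearest genes depend on that setting.

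**Figure D5:**
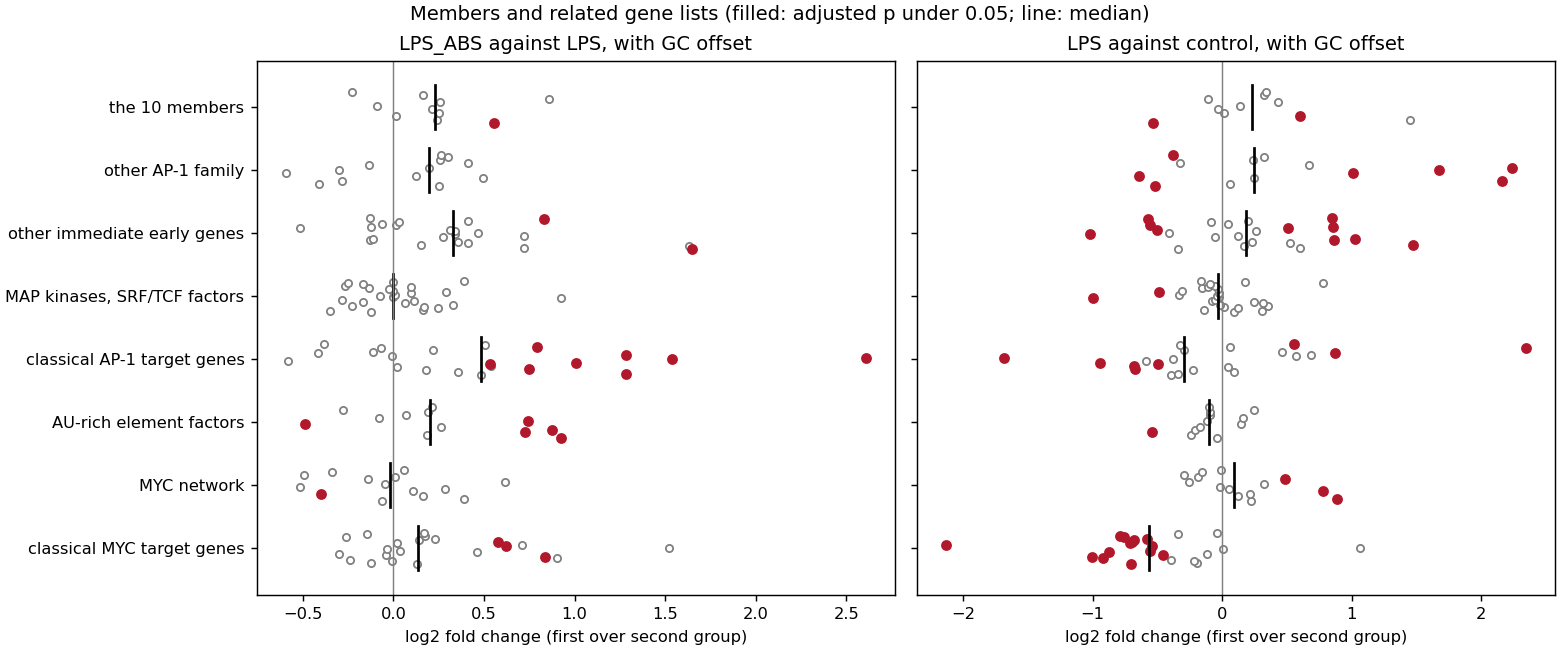
Log2 fold change with the GC offset (x axis) of the members and of 7 related gene lists (y axis) for LPS_ABS against LPS (left) and LPS against control (right); each point is a gene, filled where its adjusted p was under 0.05, and the line is the list's median. AP-1 target genes hold 8 filled points on the right of 0 in the left panel, and MYC target genes hold 14 filled points on the left of 0 in the right panel.

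Of 13 other AP-1 family genes, 4 rose and 2 fell in LPS against control, and 4 rose and 3 fell with the offset; of all genes tested 7.71% rose and 7.19% fell, or 11.4% and 9.73% with the offset. JDP2, a Jun-binding repressor, averaged 97.6 ± 8.50 CPM in LPS libraries and 20.9 ± 2.04 CPM in controls (log2 2.22 ± 0.18, adjusted p of 7.17e-05, edgeR). ATF3, a stress-induced repressor that pairs with Jun proteins, averaged 14.8 ± 0.798 CPM in LPS libraries and 3.35 ± 0.664 CPM in controls (2.14 ± 0.21, 0.000128). BATF3, a Jun partner in myeloid cells, rose by 1.61 ± 0.26 (0.00167). FOSL1 (Fra-1), a relative of FOSL2, fell by 0.56 ± 0.15 (0.0243), and BATF by 0.70 ± 0.14 (0.00558). Between LPS_ABS and LPS 5 rose and 1 fell without the offset, when 16.8% of all genes rose and 18.8% fell, and 0 were called with it (4.97% and 4.21% of all genes), where FOSL1 (0.67 without, 0.25 with) and BATF (0.57 and 0.12) and ATF2 (-1.10 and -0.41) all lost their calls. The smallest of their adjusted p-values with the offset was 0.0748 (ATF2, edgeR), and 4 of the 13 genes had an unadjusted p under 0.05.

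Of 22 other immediate early genes tested, 5 rose and 3 fell in LPS against control (7.71% and 7.19% of all genes), among them KLF6 (log2 0.82 ± 0.13), KLF10 (0.99 ± 0.17) and BHLHE40 (0.84 ± 0.17), all transcription factors, with adjusted p-values from 0.00174 to 0.00630 (edgeR). Between LPS_ABS and LPS 7 rose and 0 fell (16.8% and 18.8% of all genes), and 2 rose with the offset (4.97% of all genes). EGR1, a zinc finger factor induced through SRF as FOS is, averaged 33.0 ± 7.53 CPM in LPS_ABS libraries and 8.47 ± 0.542 CPM in LPS libraries. It rose by 1.96 ± 0.21 on the log2 scale (adjusted p of 0.00221, edgeR), and by 1.65 with the offset (0.00183). TRIB1, a pseudokinase, rose by 1.05 ± 0.18 (0.00438), and by 0.83 with the offset (0.0120). SRF, the serum response factor that binds the FOS promoter, rose by 0.72 ± 0.16 without the offset (0.00823) and differed by 0.31 with it (0.0950).

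Of 26 MAP kinases and SRF partners upstream, MAP2K6 alone was called in LPS against control (-1.02 ± 0.31, adjusted p of 0.0424, edgeR), joined by ELK3, also lower, with the offset; of all genes 14.9% were called, and 21.1% with the offset. In LPS_ABS against LPS 5 rose and 6 fell without the offset, when 35.6% of all genes were called, led by MAP3K7 (-0.72 ± 0.16), MEF2D (0.72 ± 0.16) and MAP2K4 (-0.74 ± 0.18), and 0 were called with it by edgeR (adjusted p of 0.725, 0.0612 and 0.234 for these 3, with an unadjusted p under 0.05 for 4 of the 26).

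Of 21 classical AP-1 target genes tested, 3 rose and 4 fell in LPS against control (7.71% and 7.19% of all genes). VEGFA, an angiogenic growth factor, rose by 2.33 ± 0.23 (adjusted p of 0.000128, edgeR), while IL1B, the interleukin-1 beta gene, fell by 1.73 ± 0.20 (0.000229) and VIM, the filament protein vimentin, by 0.96 ± 0.16 (0.00223). In LPS_ABS against LPS 9 rose and 1 fell, and with the offset 8 rose and 0 fell, with a list median of 0.48. Of all genes tested 16.8% rose and 18.8% fell, and with the offset 4.97% rose and 4.21% fell, with a median of 0.0027. IL1B averaged 68.9 ± 17.4 CPM in LPS_ABS libraries and 12.6 ± 1.002 CPM in LPS libraries, and rose by 2.45 ± 0.20 (adjusted p of 0.000313, edgeR) or 2.61 with the offset (5.23e-05). VIM rose by 1.28 ± 0.16 (0.00241) or 1.01 with the offset (0.00660), and PLAUR, the urokinase receptor, by 1.07 ± 0.14 (0.00259) or 0.75 with the offset (0.00586).

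Among 12 AU-rich element binding and deadenylation factors, the functional relatives of ZFP36, ELAVL1 (HuR), which stabilises such mRNAs, fell by 0.59 ± 0.16 in LPS against control (adjusted p of 0.0320, edgeR) and was the 1 gene called (14.9% of all genes were). In LPS_ABS against LPS ELAVL1 rose by 0.61 ± 0.16 (0.0155), or 0.73 with the offset (0.0110). TIA1, a translational silencer, fell by 1.18 ± 0.21 (0.00468), or 0.49 with the offset (0.0313). CNOT8, a deadenylase subunit, and KHSRP, a decay factor, were called without the offset at -0.58 ± 0.13 and 0.65 ± 0.14 and were not called with it (0.116 and 0.153). In all, 5 rose and 4 fell without the offset, when 35.6% of all genes were called, and 4 rose and 1 fell with it, when 9.18% were.

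Of 22 classical MYC target genes 0 rose and 11 fell in LPS against control (14 fell with the offset), with a list median of -0.61, while MYC itself was not called. Of all genes tested 7.71% rose and 7.19% fell (9.73% fell with the offset), with a median of -0.03. LDHA, a glycolytic enzyme, averaged 526 ± 84.8 CPM in LPS libraries and 1085 ± 6.35 CPM in controls (-1.05 ± 0.13, adjusted p of 0.000371, edgeR). HSPD1, a mitochondrial chaperonin, fell by 0.83 ± 0.12 (0.000791) and SRM, spermidine synthase, by 0.75 ± 0.12 (0.00191). In LPS_ABS against LPS 7 rose and 4 fell, and 3 rose and 0 fell with the offset, against 16.8% and 18.8% of all genes, and 4.97% and 4.21% with the offset. The 3 were LDHA (0.54 ± 0.13, and 0.84 with the offset), SRM (1.04 ± 0.12, and 0.58) and E2F2 (0.97 ± 0.19, and 0.62), with adjusted p-values with the offset of 0.00309, 0.0136 and 0.0312 (edgeR). NOP58, a small nucleolar particle protein, fell by 0.80 ± 0.16 without the offset (0.00612) and was not called with it (0.138). Against controls 0 rose and 10 fell with LPS_ABS in both fits, while 14.8% of all genes rose and 19% fell, or 7.93% and 5.03% with the offset.

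Of 14 genes of the MYC network, the MYC antagonists MXD1 and MXI1, which compete for MAX, were the 2 called in LPS against control, where 14.9% of all genes were called. MXD1 rose by 0.85 ± 0.18 (adjusted p of 0.00993, edgeR) and MXI1 by 0.73 ± 0.14 (0.00484), and MLXIPL was called as well with the offset. With LPS_ABS, 3 rose and 3 fell relative to LPS without the offset, when 35.6% of all genes were called, led by MGA (-0.95 ± 0.19), MYCBP2 (-0.81 ± 0.23) and MXD3 (0.49 ± 0.15), none of which was called with it (0.0657, 0.155 and 0.470); MXD4 was then the 1 called, lower, with 9.18% of all genes called.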

How the data were processed

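TRIzol was used to extract total RNA, per the labels' protocols, in which VAHTS Universal V5 and TruSeq stranded mRNA kits are both listed for every library. The submitters' processing notes name fastp, HISAT2, HTSeq, R 3.2.0 and DESeq2. Build, annotation and strand setting are not given in the sources used here. The authors deposited raw read counts and FPKM per gene and library for 16222 genes, and both tables gave the same length per gene to within 4.8e-14 of its mean. Whether the 3 libraries of a group are separate cultures is not stated, so p-values measure only the spread between these samples, which may be technical. No libraries were duplicates: within groups, chi-square over degrees of freedom was at least 7.07.

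The test was that of edgeR 4.0.16 (R 4.3.3) on the counts: filterByExpr (12970 genes, all 10 members among them), TMM scaling, and a quasi-likelihood F test on 3 group means fitted to 9 libraries. Adjusted p-values are Benjamini-Hochberg over all genes tested, called under 0.05. The SE of an edgeR log2 difference was back-calculated, as its absolute value over the square root of F. The common coefficient of variation between libraries was 18.4%, so counting error mattered mainly for FOSB. CPM are TMM-scaled counts. FPKM, which follow total counts and not TMM, were used to compare levels between genes and for the subunit and marker sums. They were not tested. TMM factors were 0.9154 to 0.9673 in LPS_ABS libraries, 0.9923 to 1.0438 in LPS libraries and 1.0215 to 1.0448 in controls. Differences between groups in FPKM are therefore on another scale than those in CPM. The GC offset was a lowess fit (span 0.3) per library on the GC content of the longest coding transcript in GENCODE v29, known for 16090 genes (99.19%). The fit was tested on simulated data, where the GC trend put in was the same in every LPS_ABS library. Such data cannot show whether the offset also removes real changes linked to GC content. Alternatives were DESeq2 1.42.0, limma 3.58.1 (voom), other scalings and filters, a 2-group fit, a replicate block, and each library left out. The offset with each LPS_ABS library left out was chosen after seeing the data.

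Named genes were the members, up to 3 genes per list with the smallest adjusted p in LPS against control and in LPS_ABS against LPS, and 3 genes nearest in profile to each of the 3 members with the widest range (among genes of at least 10 CPM, with 0.5 CPM added). The members and lists were chosen with earlier results of these data known.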

Additional observations from a re-analysis of the deposited data

How the results depend on the processing

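The labels give the groups shared replicate numbers, but the correlation of same-numbered libraries' deviations was over 0.1 in some pairs and not in others (-0.04 to 0.02 for LPS with control, -0.01 to 0.13 for LPS_ABS with LPS, and -0.01 to 0.20 for LPS_ABS with control), so the numbers were not taken to pair the libraries. With a replicate block the members called were 2 in LPS against control, 6 in LPS_ABS against LPS and 8 in LPS_ABS against control, the same counts as without it, and the genes called were 1960, 4838 and 4573, against 1933, 4621 and 4388. The block together with the GC offset called 3, 2 and 3 members and 2794, 1409 and 1758 genes.

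The GC offset alone called 1 member and 1191 genes in LPS_ABS against LPS, and 3 members and 1682 genes in LPS_ABS against control. Fitting only the groups compared called 3245 genes in LPS against control and 3042 in LPS_ABS against LPS. With total counts in place of TMM, 1489 genes were called higher and 3080 lower in LPS_ABS against LPS (2179 and 2442 with TMM), and 1192 and 3271 in LPS_ABS against control (1920 and 2468). With no filter 1160 were higher and 748 lower in LPS against control (1000 and 933). Leaving out each library gave 0 to 2 members and 873 to 1698 genes in LPS against control, 2 to 6 members and 2360 to 4918 genes in LPS_ABS against LPS, and 4 to 8 members and 2351 to 4679 genes in LPS_ABS against control. With the offset, leaving out each LPS_ABS library gave 1 to 2 members and 583 to 2751 genes against LPS (728 without LPS_ABS 3), and 1 to 4 members and 659 to 2612 genes against control (2222 without LPS_ABS 1).

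The sign changed only for values that were not called in the setting that changed it. JUN in LPS against control was -0.025 with total counts, -0.0048 with limma-voom, and -0.078 to 0.13 with libraries left out. MYC in LPS_ABS against LPS was -0.066 with total counts, -0.0012 with no filter, -0.23 with the offset, -0.24 with offset and block, -0.076 to 0.17 with libraries left out, and -0.34 to -0.093 (-0.27 without LPS_ABS 3) when the offset was kept. JUND in that comparison was -0.093 with the offset, -0.099 with offset and block, and -0.17 to 0.0059 (-0.12 without LPS_ABS 1) with the offset and libraries left out. With the offset and an LPS_ABS library left out, FOSB ran from -0.028 to 0.53 and FOSL2 from -0.035 to 0.043 against LPS, and FOS from -0.026 to 0.065, JUND from -0.037 to 0.14 and MYC from -0.0073 to 0.24 against control. In LPS against control, IER3 ran from -0.32 to 0.047 and JUNB from -0.18 to 0.058 with libraries left out. MYC was called by DESeq2 in LPS_ABS against control (adjusted p of 0.0486) and by the 2-group fit in LPS against control (edgeR adjusted p of 0.0217), and IER2 by block with offset in LPS against control (edgeR adjusted p of 0.0435).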

Other observations

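Against controls, the related gene lists were called as follows with LPS_ABS, when 14.8% of all genes tested rose and 19% fell, or 7.93% and 5.03% with the GC offset. Of 13 other AP-1 family genes 7 rose and 1 fell, and 5 rose and 1 fell with the GC offset. JDP2 averaged 125 ± 31.5 CPM in LPS_ABS libraries and 20.9 ± 2.04 CPM in controls (SD, n = 3), a log2 rise of 2.57 ± 0.19 (adjusted p of 3.71e-05, edgeR), or 2.43 with the offset. ATF3 rose by 1.99 ± 0.21 (adjusted p of 0.000258, edgeR), or 1.87 with the offset. Of 22 other immediate early genes 11 rose and 1 fell, and 9 rose and 1 fell with the offset. EGR1 averaged 33.0 ± 7.53 CPM in LPS_ABS libraries and 10.9 ± 2.62 CPM in controls, a rise of 1.60 ± 0.20 (adjusted p of 0.000514, edgeR), or 1.31 with the offset.

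Of 21 AP-1 target genes 10 rose and 1 fell, and 7 rose and 1 fell with the offset, with IL1B up by 0.72 ± 0.19 (adjusted p of 0.0137, edgeR) and VEGFA by 2.41 ± 0.24 (0.000188). Of 26 MAP kinases and SRF partners 3 rose and 5 fell, and 0 were called with the offset by edgeR, where 5 had an unadjusted p under 0.05. Of 12 AU-rich element factors 3 rose and 4 fell, and 3 rose and 0 fell with the offset. Of 14 MYC network genes 5 rose and 3 fell, and 2 rose and 2 fell with the offset, the 2 that rose being MXD1 and MXI1.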
